A study of Homo sapiens with 9 samples.

Results

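The genes described here are the 8 that act closest to the T-cell receptor in its signalling pathway: LCK, FYN, ZAP70, LAT, LCP2, PTPRC, THEMIS and PLCG1. They were taken by symbol from the deposited expression table. All 8 were present among its 26190 rows with values, and all 8 were among the 11737 genes tested. When the receptor binds antigen, the SRC-family kinases LCK and FYN phosphorylate the receptor's CD3 and zeta chains, and the phosphatase CD45, the product of PTPRC, controls how active these kinases are. ZAP70 then docks on the phosphorylated chains and phosphorylates the scaffold proteins LAT and SLP-76 (the product of LCP2), which assemble the complex that activates phospholipase C gamma 1 (PLCG1). THEMIS is a T-lineage protein of this complex that is required for thymocyte selection. In Jurkat cells, a human T-cell acute lymphoblastic leukaemia line, this pathway was worked out in large part with mutants lacking single members.

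The study compared unedited Jurkat cells, labelled EZH2 WT, with 2 lines made by CRISPR/Cas9 editing of EZH2, labelled KO1 and KO2. EZH2 is the H3K27 methyltransferase of Polycomb repressive complex 2. Each line contributed 3 mRNA libraries, which the submitters call biological replicates, from cultures in exponential growth with no treatment named. Each edited line is 1 line, whose clonality the labels do not give, so the p-values below measure the spread between cultures of that line and not between independent edits. Levels are FPKM (fragments scaled to transcript length and to library size), and means are given ± SD over 3 libraries. Differences are log2 fold changes of FPKM + 1, given ± SE, and a gene was called where limma's Benjamini-Hochberg adjusted p over all tested genes was under 0.05.

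Summed FPKM per library lay between 417737 and 439704, and read depth is unknown. EZH2 transcript was higher in the edited lines, at 74.4 to 79.5 FPKM in the WT libraries, 103 to 108 in those labelled KO1 and 87.9 to 90.7 in those labelled KO2. The summed transcript is no test of a small edit, so group identities rest on the labels. All 8 T-lineage markers examined (CD3D, CD3E, CD3G, CD247, CD2, CD5, CD7 and CD28) were tested, and their summed level was 1197 to 1274 FPKM in WT, 1094 to 1207 in KO1 and 1261 to 1289 in KO2. CD3 genes made up most of this sum. Of the 8 markers, 3 were called higher and 5 lower in KO1, and 3 higher and 4 lower in KO2. Over all tested genes 35.6% were called higher and 31.9% lower in KO1, and 38.1% and 26.6% in KO2. The counts of higher markers lay near these shares. CD28, the costimulatory receptor, fell from 35.4 ± 0.483 to 7.73 ± 0.351 and 13.5 ± 0.481 FPKM, and CD7 rose from 49.7 ± 5.09 to 90.0 ± 10.9 and 89.0 ± 1.18 FPKM. All 6 myeloid markers and 5 of 6 B-cell markers were under 1 FPKM in all 9 libraries, with PAX5 at 0 throughout, and 5 of 6 natural killer markers were too. The exceptions were CD79A and NCAM1. CD79A averaged 27.5 ± 2.57 FPKM in the unedited line, with 54.9 ± 5.52 in KO1 and 21.0 ± 1.65 in KO2. NCAM1 averaged 0.0913 ± 0.0799 FPKM in the unedited line, with 17.6 ± 0.391 in KO1 and 4.03 ± 0.260 in KO2. The part of cell composition in the results below was not tested, and in these bulk libraries fewer cells expressing a gene and less RNA per cell cannot be told apart.

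The 250 bases upstream of annotated start sites are shown for some members only. These are THEMIS, which fell most, PTPRC and LCK, which fell in both edited lines, and LCP2, which rose in both. FYN and PLCG1 also fell in both, but their windows are not shown. All sequences shown are from RefSeq on GRCh38.p14, written 5′ to 3′ on the gene's strand. Which start the cells used cannot be read from gene-level values. THEMIS has 2 further annotated starts, whose windows held none of the motifs below and are not shown. Capitals mark matches on either strand to any of 4 motifs. GGAAGT is the core of ETS factor sites and TGTGGT that of RUNX sites. CACGTG is the E-box read by MYC, and AGATAA is a site of GATA factors.
THEMIS, chr6:127918596-127918845, minus strand: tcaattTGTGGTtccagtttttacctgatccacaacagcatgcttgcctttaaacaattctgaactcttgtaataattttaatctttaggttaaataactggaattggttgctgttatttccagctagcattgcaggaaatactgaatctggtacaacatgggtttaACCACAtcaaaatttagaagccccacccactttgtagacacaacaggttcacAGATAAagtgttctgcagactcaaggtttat
PTPRC, chr1:198638790-198639039, plus strand: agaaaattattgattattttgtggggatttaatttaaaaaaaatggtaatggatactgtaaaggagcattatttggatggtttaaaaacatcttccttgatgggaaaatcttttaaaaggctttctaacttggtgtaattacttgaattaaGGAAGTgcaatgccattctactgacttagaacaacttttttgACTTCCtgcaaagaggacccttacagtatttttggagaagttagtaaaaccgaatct
LCK upstream start, chr1:32251015-32251264, plus strand: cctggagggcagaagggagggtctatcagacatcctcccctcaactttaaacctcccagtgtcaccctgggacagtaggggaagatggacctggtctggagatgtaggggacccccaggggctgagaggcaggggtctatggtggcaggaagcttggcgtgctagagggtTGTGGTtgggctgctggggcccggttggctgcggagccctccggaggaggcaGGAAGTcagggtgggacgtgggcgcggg
LCK downstream start, chr1:32273871-32274120, plus strand: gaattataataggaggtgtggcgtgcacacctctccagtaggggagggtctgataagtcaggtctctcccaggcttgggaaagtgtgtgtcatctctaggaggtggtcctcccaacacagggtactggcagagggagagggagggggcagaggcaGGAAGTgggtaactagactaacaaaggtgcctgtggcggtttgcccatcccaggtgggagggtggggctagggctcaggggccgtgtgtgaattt
LCP2, chr5:170297778-170298027, minus strand: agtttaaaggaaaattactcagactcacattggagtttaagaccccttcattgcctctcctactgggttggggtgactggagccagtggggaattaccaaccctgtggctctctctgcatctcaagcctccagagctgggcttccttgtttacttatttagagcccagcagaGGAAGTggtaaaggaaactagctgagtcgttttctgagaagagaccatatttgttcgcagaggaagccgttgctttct

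The 5 windows shown had few CpG dinucleotides, with observed-to-expected ratios of 0.298 or less. RefSeq gave 17 such windows for the 8 members, and in 6 members, LCK, ZAP70, LAT, LCP2, PTPRC and THEMIS, every window had a CpG observed-to-expected ratio of 0.375 or less. The bound of 0.375 is the highest ratio among the windows of these 6 members, so it was set by them. The median over 12898 windows of tested genes was 0.809, and 13.9% of those windows, counted singly and not by gene, lay under 0.375. The THEMIS window shown contained no CpG at all, and that of PTPRC had a ratio of 0.174. PLCG1 (0.957) and 1 of the 4 FYN windows (1.11), which are not among those shown, lay above the median. An ETS core was found in 4 of the 17 windows (23.5%, against 23.1% over windows of tested genes and 19.5% over all 35116 windows), in the genes LCK, LCP2 and PTPRC. RUNX matches were found in 2 windows, of LCK and THEMIS (11.8%, against 8.37% of tested and 11% of all windows). GATA matches were found in 2, of FYN and THEMIS (11.8%, against 4.92% and 9.17%), and the E-box in 1, of ZAP70 (5.88%, against 8.47% and 6.34%). A match is a description of the letters and not evidence of binding.

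In the libraries labelled KO1, 7 of the 8 genes fell and 1, LCP2, rose, so that all 8 were called, against 67.5% of all tested genes. By direction, 31.9% of tested genes were called lower and 35.6% higher. In those labelled KO2, 5 fell and LCP2 again rose, and these 6 of 8 compare with 64.7% of tested genes called in either direction, 26.6% lower and 38.1% higher. Of the KO2 calls 58.9% were higher, and 50.8% after quantile normalization. The median log2 fold change of the 8 genes was -0.58 in KO1 and -0.30 in KO2, where the medians over all tested genes were 0.02 and 0.06. Both comparisons use the same 3 WT libraries, so they are not independent of each other. THEMIS was the only member to change 2-fold or more in either line, a size that 2.85% of tested genes reached downward in KO1 and 2.16% in KO2. The libraries of WT and KO1 did not overlap for any of the 8 genes (68.6% of all tested genes), nor those of WT and KO2 for 6 of them (69.2%). The 8 transcripts together summed to 729 to 740 FPKM in the WT libraries, 453 to 484 in KO1 and 524 to 540 in KO2.

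**Figure D1:**
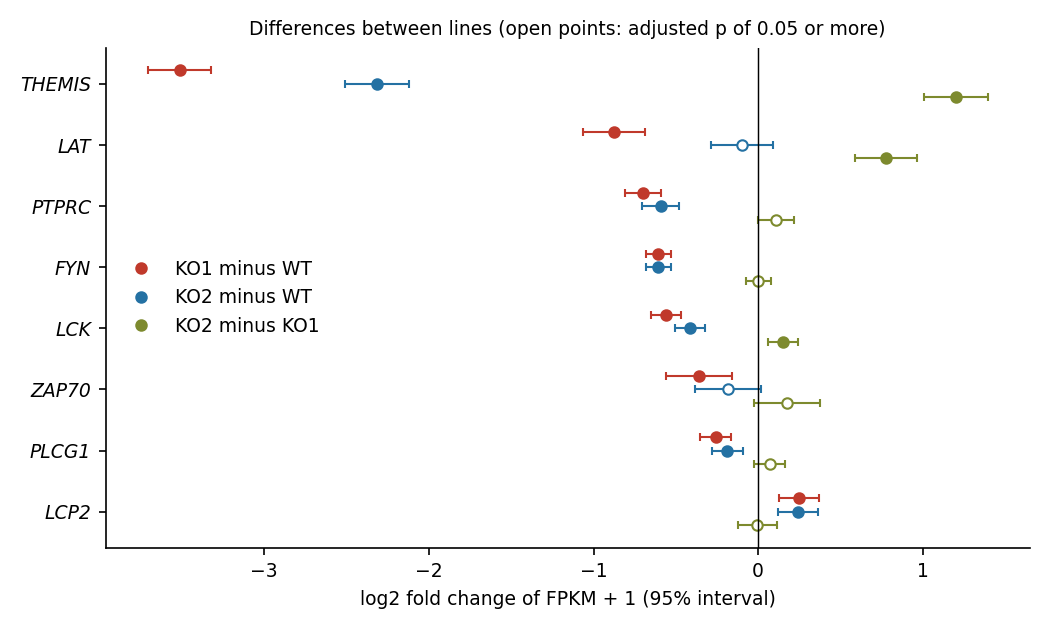
Log2 fold changes of FPKM + 1 for the 8 genes (x axis, points with 95% intervals of the moderated fit) in KO1 minus WT, KO2 minus WT and KO2 minus KO1. Open points did not pass. THEMIS stands apart at -3.51 and -2.31, LAT lies at -0.87 in KO1 and -0.10 in KO2, and LCP2 lies to the right of 0 in both comparisons with WT.

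PTPRC, the receptor-type phosphatase that removes the inhibitory phosphate from LCK and FYN, fell in both lines. It stood at 86.5, 76.3 and 77.8 FPKM in the WT libraries, at 47.8, 48.2 and 50.8 in KO1 and at 52.8, 51.9 and 53.8 in KO2. Every WT library was above every edited one. The log2 fold change was -0.70 ± 0.05 in KO1 (limma adjusted p = 5.71e-07) and -0.59 ± 0.05 in KO2 (adjusted p = 2.68e-06), which left 61.0% and 65.8% of the WT mean.

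LCK, the kinase that first phosphorylates the receptor chains, was the most abundant of the 8 in every library and fell in both lines. Its values were 281, 290 and 281 FPKM in WT, 203, 189 and 185 in KO1 and 214, 219 and 207 in KO2. The groups did not overlap. The log2 fold change was -0.56 ± 0.04 in KO1 (adjusted p = 6.68e-07) and -0.41 ± 0.04 in KO2 (adjusted p = 9.00e-06). LCK was among the 2.58% most abundant tested genes in KO1 and the 2.33% most abundant in KO2, against 1.65% in WT.

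FYN, the other SRC-family kinase of the group, had the lowest coefficient of variation of the 8 in each group and fell in both lines. It stood at 63.6, 61.5 and 62.5 FPKM in WT, at 40.9, 40.8 and 40.4 in KO1 and at 40.5, 40.8 and 40.9 in KO2. The 6 edited libraries lay within 40.4 to 40.9 FPKM, with a coefficient of variation of 0.605% in KO1 and 0.588% in KO2. FYN fell by 0.61 ± 0.03 on the log2 scale in KO1 (adjusted p = 8.78e-08) and by 0.61 ± 0.03 in KO2 (adjusted p = 1.37e-07).

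ZAP70, the SYK-family kinase that LCK activates on the receptor, fell in KO1 and did not pass in KO2. Its WT libraries were at 57.3, 73.1 and 72.6 FPKM, those of KO1 at 55.1, 54.2 and 47.6, and those of KO2 at 58.9, 62.0 and 56.5. WT replicate 1 lay well below the other WT libraries and within the range of KO2. The log2 fold change was -0.36 ± 0.09 in KO1 (adjusted p = 0.00462) and -0.18 ± 0.09 in KO2 (adjusted p = 0.0951, 95% interval -0.38 to 0.02). Without WT replicate 1 the KO2 value was -0.30 and passed (adjusted p = 0.00251). It also passed after each library was centred on its median (-0.23, adjusted p = 0.0440). ZAP70 overlaps TMEM131 in the RefSeq annotation, and whether the counting separated their reads is not given in the sources used here. TMEM131 had a mean of 21.4 FPKM over the 9 libraries.

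LAT, the membrane scaffold that ZAP70 phosphorylates, fell in KO1 and did not pass in KO2. It stood at 47.4, 54.7 and 58.7 FPKM in WT and at 31.8, 29.0 and 25.5 in KO1, with no overlap. The KO2 libraries, at 49.5, 49.9 and 50.2 FPKM, lay inside the WT range. LAT fell in KO1 to 53.7% of the WT mean (log2 fold change -0.87 ± 0.09, adjusted p = 5.75e-06). In KO2 the difference from WT was -0.10 ± 0.09 (adjusted p = 0.340, 95% interval -0.29 to 0.09). It was -0.18 without WT replicate 1 (adjusted p = 0.0608) and -0.03 without WT replicate 3 (adjusted p = 0.786).

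LCP2, which encodes the adaptor SLP-76, was the one member that rose. Its values were 48.8, 48.2 and 45.1 FPKM in WT, 58.9, 53.1 and 57.4 in KO1 and 53.9, 55.2 and 59.8 in KO2. Every edited library was above every WT library, and the edited lines overlapped each other. The rise was 0.25 ± 0.05 on the log2 scale in KO1 (adjusted p = 0.00212) and 0.24 ± 0.05 in KO2 (adjusted p = 0.00262).

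PLCG1, the phospholipase that produces the second messengers for calcium release and for protein kinase C and RAS activation, fell modestly in both lines. It stood at 45.0, 48.2 and 47.7 FPKM in WT, at 40.0, 37.8 and 39.5 in KO1 and at 41.5, 41.6 and 40.1 in KO2. The WT libraries were all above the edited ones, by a margin of a few FPKM. The log2 fold change was -0.26 ± 0.04 in KO1 (adjusted p = 0.000287) and -0.19 ± 0.04 in KO2 (adjusted p = 0.00274).

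THEMIS had the largest change of the 8. It fell from 102, 88.0 and 83.4 FPKM in WT to 6.69, 7.55 and 6.91 in KO1 and 17.9, 19.1 and 15.6 in KO2. The lowest WT library was above 80 FPKM and no edited library reached 20. The ratio of means was 12.9-fold in KO1 and 5.20-fold in KO2, and the log2 fold change was -3.51 ± 0.09 (adjusted p = 3.40e-10) and -2.31 ± 0.09 (adjusted p = 9.21e-09). THEMIS went from the second most abundant of the 8 in WT, among the top 6.78% of tested genes, to the least abundant in both edited lines.

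**Figure D2:**
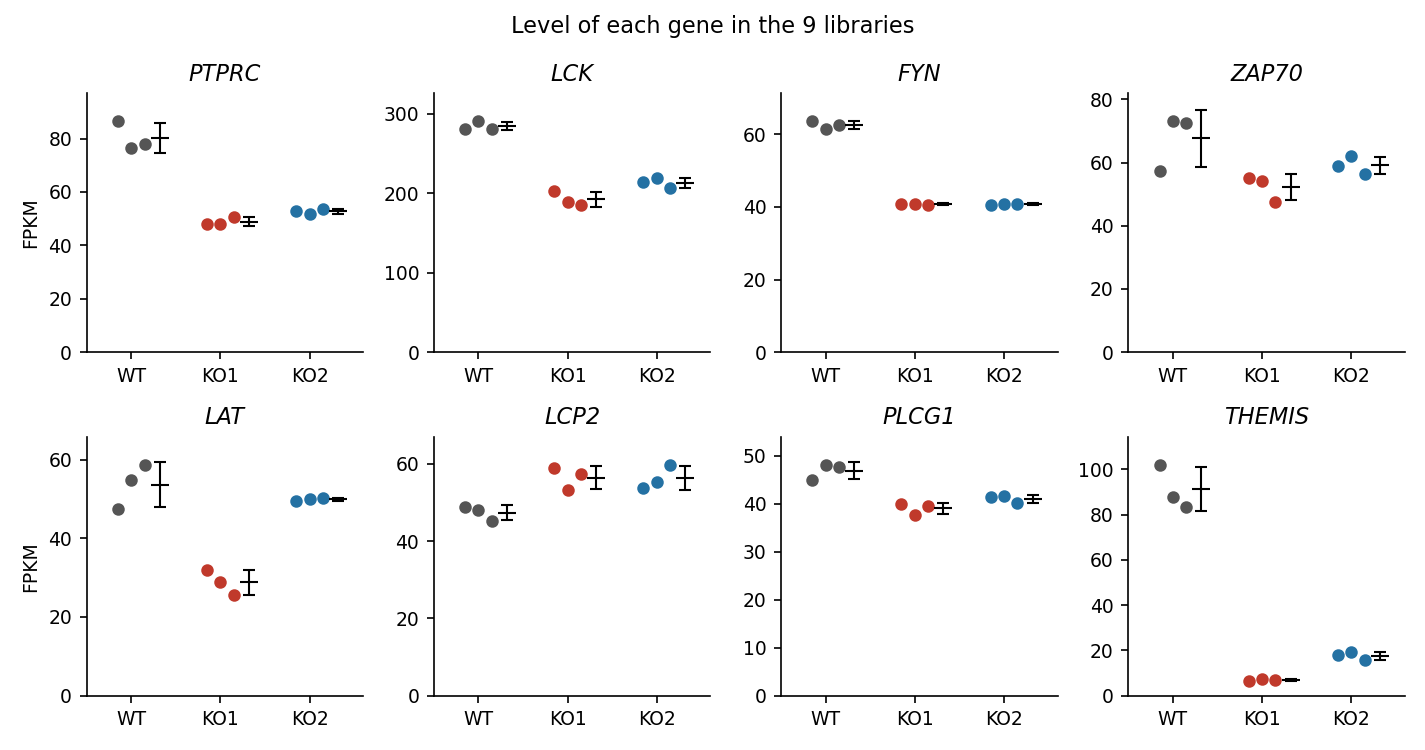
FPKM of each gene (y axis, from 0) in the 9 libraries, with a point per library and the mean ± SD beside each group. The PTPRC, LCK, FYN, PLCG1 and THEMIS points of WT lie above those of both edited lines, those of LCP2 lie below them, and the LAT points of KO2 lie within the WT range.

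The direct comparison of the edited lines tests whether their differences from WT were unequal. LCK, LAT and THEMIS passed, all 3 higher in KO2, against 30.6% of tested genes called in either direction, 18.3% higher and 12.4% lower. For 6 members all KO2 libraries lay above all KO1 libraries, as for 28.7% of tested genes. Of all calls in this comparison 59.7% were higher in KO2, but 47.9% after median centring and 49.0% after quantile normalization. THEMIS differed by 1.20 ± 0.09 on the log2 scale (adjusted p = 5.65e-06) and stood 2.49-fold higher in KO2, where 0.358% of tested genes were called with a rise of 2-fold or more. LAT differed by 0.78 ± 0.09 (adjusted p = 8.72e-05) and stood 1.73-fold higher. For LCK the difference was 0.15 ± 0.04 (adjusted p = 0.0206), and this call was lost without KO1 replicate 2 (adjusted p = 0.0716), KO1 replicate 3 (0.0686), KO2 replicate 1 (0.0628) or KO2 replicate 2 (0.0836). It was also lost after median centring (0.11, adjusted p = 0.0737) and with no mean-variance trend (adjusted p = 0.0534). The other 5 did not pass. The 95% intervals of the difference were -0.07 to 0.08 for FYN, -0.13 to 0.12 for LCP2 and -0.02 to 0.16 for PLCG1. They were -0.02 to 0.38 for ZAP70 and -0.004 to 0.22 for PTPRC. Without WT replicate 1, ZAP70 (adjusted p = 0.0384) and PTPRC (adjusted p = 0.0446) passed as well, giving 5 calls.

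The order of abundance, compared per length in FPKM, differed between the lines. In WT it ran LCK, THEMIS, PTPRC, ZAP70, FYN, LAT, LCP2 and PLCG1, from 284 ± 5.33 down to 46.9 ± 1.72 FPKM. The libraries of THEMIS and PTPRC, of ZAP70 and FYN, of LAT and LCP2 and of LCP2 and PLCG1 overlapped. Within each WT library THEMIS was above PTPRC, while the other overlapping pairs changed order between libraries. The order of the genes was not tested. In KO1 LCP2 came second at 56.5 ± 3.0 FPKM, followed by ZAP70 and PTPRC with libraries that overlapped from one to the next. FYN, PLCG1, LAT at 28.8 ± 3.15 and THEMIS at 7.05 ± 0.447 came after them, in this order and with no overlap. In KO2 ZAP70 came second at 59.1 ± 2.72 FPKM and LCP2 next at 56.3 ± 3.09, with overlapping libraries. PTPRC and LAT came after them with no overlap, and then PLCG1 and FYN, which overlapped at 41.1 ± 0.819 and 40.7 ± 0.240, above THEMIS.

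Ratios of 2 transcripts were taken within each library. The ratio of LCK to FYN was 4.42, 4.73 and 4.5 in WT, 4.97, 4.64 and 4.58 in KO1 and 5.29, 5.37 and 5.05 in KO2. KO2 lay above both other groups, and WT and KO1 overlapped. The ratio of PTPRC to LCK was 0.282 ± 0.0230 in WT, 0.255 ± 0.0194 in KO1 and 0.248 ± 0.0118 in KO2, and KO1 overlapped both other groups. The ratio of ZAP70 to SYK, its family partner, was 2.74, 3.38 and 3.42 in WT, 1.90, 1.91 and 1.60 in KO1 and 2.01, 2.08 and 1.96 in KO2. Here every WT library was above every edited library. The ratios of PTPRC to LCK and of ZAP70 to SYK and those of LCP2 to LAT and of FYB to LCP2 were chosen after their values were seen. The ratio of LCP2 to LAT was 0.893 ± 0.131 in WT, 1.98 ± 0.234 in KO1 and 1.13 ± 0.0545 in KO2. That of FYB to LCP2 was 3.39 ± 0.145 in WT, 0.448 ± 0.0350 in KO1 and 0.519 ± 0.0629 in KO2. All of these ratios are descriptions, with no test.

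**Figure D3:**
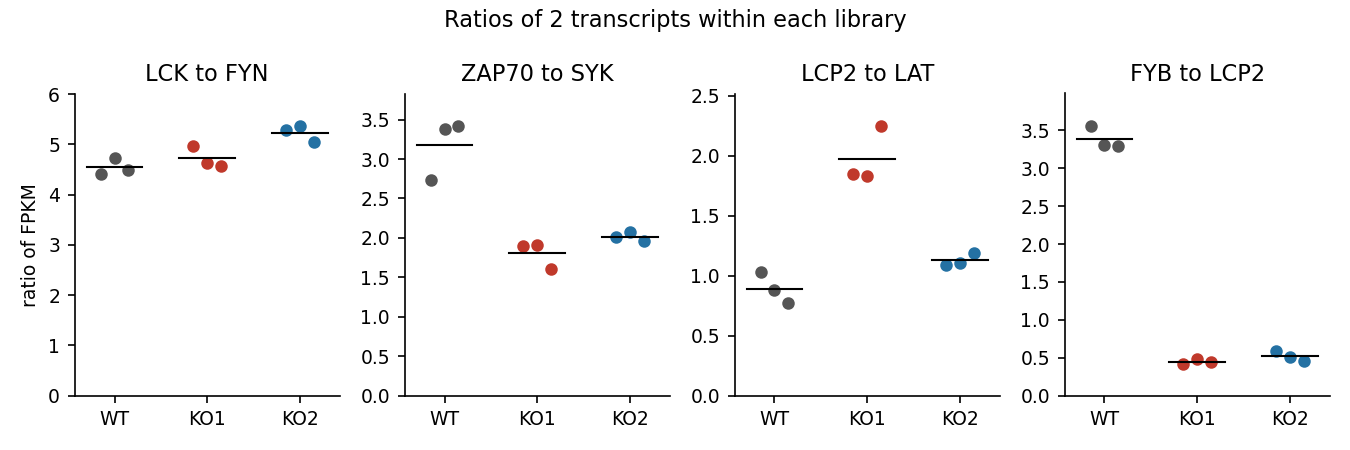
Ratio of the FPKM of 2 genes within each library (y axis, from 0) for LCK to FYN, ZAP70 to SYK, LCP2 to LAT and FYB to LCP2, with a point per library and a line at the group mean. LCK to FYN stays between 4.42 and 5.37, ZAP70 to SYK is lower in all 6 edited libraries, and LCP2 to LAT is highest in KO1.

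Among kinases related to the members, SYK rose in both lines, and BLK, at a WT mean of 2.18 FPKM, was lower in both. SYK, the ZAP70 relative that serves the B-cell receptor, went from 20.9, 21.6 and 21.2 FPKM to 29.0, 28.4 and 29.7 in KO1 and 29.2, 29.8 and 28.9 in KO2 (log2 fold changes 0.43 ± 0.04 and 0.45 ± 0.04, adjusted p = 3.81e-06 and 3.86e-06). YES1, a broadly expressed SRC-family kinase, had 13.2 ± 1.34, 11.5 ± 0.823 and 12.1 ± 0.414 FPKM and did not pass (adjusted p = 0.0520 in KO1 and 0.199 in KO2). YES1 passed in KO1 without WT replicate 3 (-0.24, adjusted p = 0.0202) and, with adjusted p from 0.0450 to 0.0494, under 4 other settings of filter, scaling or moderation. The SRC-family kinase BLK fell from 2.18 ± 0.183 to 1.14 ± 0.101 and 0.398 ± 0.143 FPKM. All its KO2 libraries were under 1 FPKM, so BLK met the filter through WT and KO1, where it is higher. Its calls are therefore weak support for a change. TXK, a T-cell kinase of the TEC family, averaged 0.511 ± 0.177, 0.804 ± 0.165 and 1.48 ± 0.124 FPKM. Only its KO2 libraries reached 1 FPKM, so TXK met the filter through that group alone, and its calls are no support for a change. TXK passed in KO2 (0.72 ± 0.11, adjusted p = 0.0002), and in KO1 the difference was 0.26 ± 0.11 (adjusted p = 0.0579). Without WT replicate 3 TXK passed in KO1 as well (0.35, adjusted p = 0.0191).

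The adaptors and exchange factors that work beside LAT and SLP-76 were mostly lower. Of 19 tested of 21 listed, KO1 had 12 lower and 6 higher, and KO2 had 11 lower and 5 higher, with median log2 fold changes of -0.36 and -0.27. Over all tested genes 31.9% were lower and 35.6% higher in KO1, and 26.6% and 38.1% in KO2. FYB, whose product ADAP binds SLP-76 and links the receptor to integrin adhesion, fell from 174, 159 and 149 FPKM in WT to 24.4, 25.7 and 25.5 in KO1 and 31.7, 27.9 and 27.7 in KO2. The groups were far apart, with log2 fold changes of -2.62 ± 0.06 (adjusted p = 3.27e-10) and -2.43 ± 0.06 (adjusted p = 8.39e-10). GRAP2, which encodes the adaptor GADS that bridges LAT and SLP-76, went from 39.6 ± 2.33 to 25.8 ± 0.675 and 23.2 ± 1.22 FPKM (-0.60 ± 0.06 and -0.75 ± 0.06, adjusted p = 3.79e-06 and 9.55e-07). SH2D1A, the adaptor SAP that recruits FYN to SLAM-family receptors, went from 88.3 ± 6.88 to 48.8 ± 2.27 and 47.4 ± 1.08 FPKM (-0.84 ± 0.06 and -0.88 ± 0.06). The exchange factor gene VAV2 rose, from 3.58 ± 0.303 to 6.58 ± 0.303 and 6.91 ± 0.439 FPKM (0.73 ± 0.07 and 0.79 ± 0.07).

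Most of the tested negative regulators of the pathway fell. Of 19 tested, KO1 had 12 lower and 3 higher and KO2 had 13 lower and 4 higher, with medians of -0.31 and -0.18, against the same shares of all tested genes (31.9% lower and 35.6% higher in KO1, 26.6% and 38.1% in KO2). PAG1, the membrane adaptor that brings the inhibitory kinase CSK to LCK and FYN, fell from 13.7 ± 0.479 to 8.41 ± 0.599 and 8.10 ± 0.339 FPKM. The ubiquitin ligase gene CBL fell from 27.4 ± 1.69 to 17.9 ± 0.232 and 17.6 ± 0.418 FPKM. DGKA, the diacylglycerol kinase that removes one product of PLCG1, fell from 38.8 ± 1.59 to 23.7 ± 2.10 and 23 ± 0.859 FPKM. The inhibitory adaptor gene DOK2 fell from 8.19 ± 0.794 to 2.55 ± 0.335 and 3.76 ± 0.193 FPKM. Adjusted p-values of these 4 genes from limma lay between 2.97e-07 and 6.39e-06 in the 2 comparisons.

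Genes downstream of PLCG1 included some that rose and some that fell. The list of second messenger genes and effectors, which also held the surface receptors CD2 and CD5, had 23 tested genes, of which 13 were called higher and 6 lower in KO1, and 10 higher and 7 lower in KO2 (medians 0.22 and 0.05). Shares over all tested genes were 35.6% higher and 31.9% lower in KO1 and 38.1% and 26.6% in KO2, so the KO2 counts and the lower count in KO1 lay near the background. RASGRP1, the diacylglycerol-activated exchange factor for RAS, fell from 44.8 ± 2.49 to 18.2 ± 1.37 and 15.4 ± 1.49 FPKM (log2 fold changes -1.26 ± 0.07 and -1.48 ± 0.07, adjusted p = 1.34e-07 and 6.15e-08). STIM1, the calcium sensor of the endoplasmic reticulum, fell from 53.6 ± 2.54 to 27.5 ± 1.52 and 35.5 ± 1.19 FPKM (-0.94 ± 0.05 and -0.58 ± 0.05). PPP3CA, a catalytic subunit of calcineurin, rose from 3.33, 2.71 and 2.39 FPKM in WT to 12.2, 12.4 and 12.8 in KO1 and 14.5, 13.5 and 13.9 in KO2 (1.83 ± 0.08 and 1.98 ± 0.08, adjusted p = 1.94e-08 and 1.99e-08). CD5, a receptor that dampens signalling, fell from 34.9 ± 2.45 to 14.5 ± 0.542 and 18.7 ± 0.765 FPKM. CD2, an adhesion receptor, went in opposite directions, from 35.8 ± 0.774 FPKM in WT to 90.6 ± 3.60 in KO1 and 4.38 ± 0.789 in KO2.

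Among the genes of the receptor itself, the coreceptor CD4 had the largest change. Of 6 tested receptor and coreceptor genes of 7 listed, KO1 had 4 lower and 1 higher (2 higher without WT replicate 2), and KO2 had 2 of each, with medians of -0.24 and 0.105. The KO2 counts lay near the shares over all tested genes (26.6% lower, 38.1% higher), and in KO1 those shares were 31.9% and 35.6%. CD3G rose from 146 ± 8.35 to 172 ± 6.28 and 174 ± 6.94 FPKM, and CD247, the zeta chain on which ZAP70 docks, fell from 71.3 ± 2.55 to 57.3 ± 2.97 and 59.8 ± 2.01. CD4, which carries LCK to the receptor, went from 12.7 ± 1.49 to 2.81 ± 0.383 and 1.10 ± 0.135 FPKM, with log2 fold changes of -1.84 ± 0.10 and -2.70 ± 0.10.

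**Figure D4:**
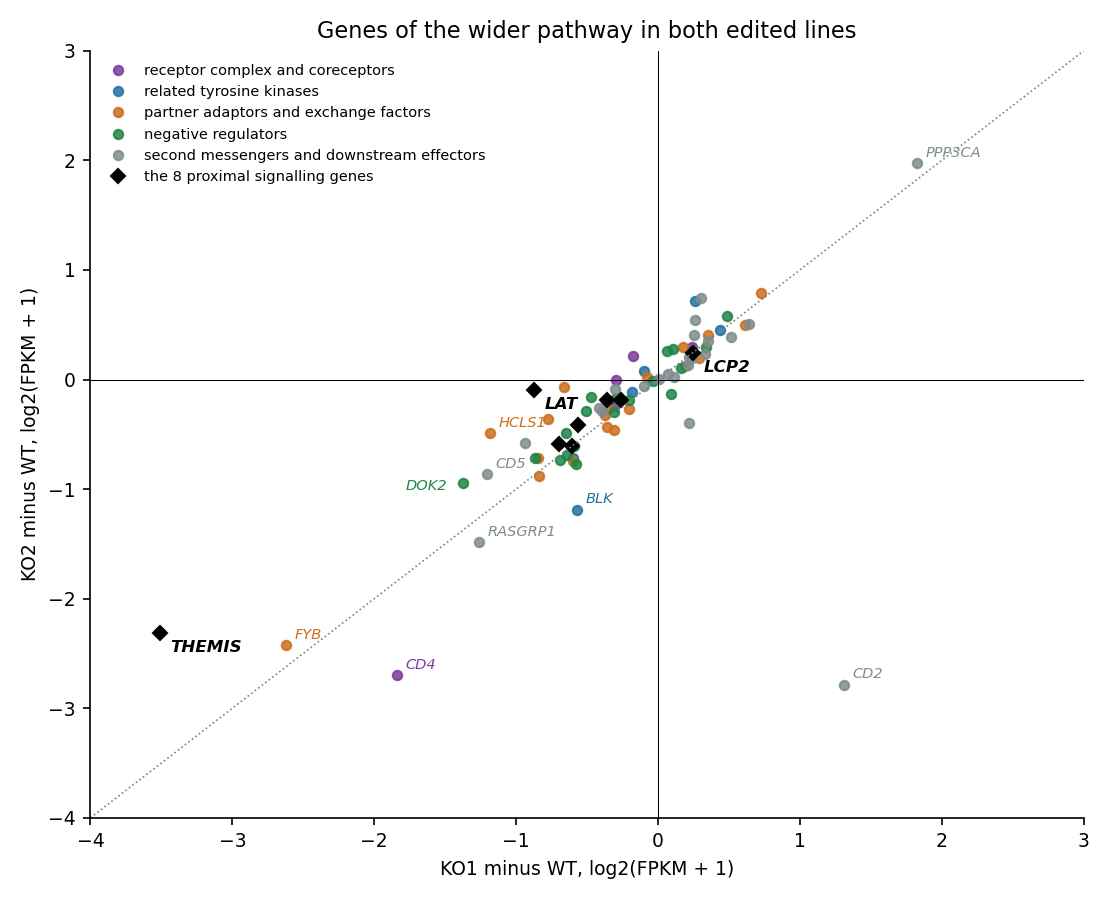
Log2 fold change of FPKM + 1 in KO1 minus WT (x axis) and KO2 minus WT (y axis) for the tested genes of 5 lists around the pathway and for the 8 members (black diamonds). Both axes share the WT libraries, so closeness to the dotted line of equal values is not independent evidence. FYB at -2.62 and -2.43 lies closest to THEMIS among the listed genes, PPP3CA lies at the upper right, and CD2 lies to the lower right.

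Genes whose values followed THEMIS across the 9 libraries were searched among the 8724 genes averaging at least 5 FPKM, by the Euclidean distance of log2(FPKM + 1) values centred on each gene's WT mean. The nearest were C20orf197 (distance 0.873) and BHLHE40 (1.03). C20orf197 went from 24.4 ± 0.226 FPKM in WT to 1.95 ± 0.481 in KO1 and 3.58 ± 0.435 in KO2. BHLHE40, a transcriptional repressor, went from 42.0 ± 2.52 to 4.05 ± 0.328 and 5.84 ± 1.54 FPKM. No other member changed 2-fold, so the search was made for THEMIS alone.

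The members are spread over the genome. LCK and PTPRC lie on chromosome 1 and FYN and THEMIS on chromosome 6. The nearest tested gene on each side of each member was found from the order of genes in RefSeq on GRCh38.p14. Of these 16 neighbours in KO1, 6 were called in the member's direction and 6 in the opposite one, near the 67.5% of all tested genes called. In KO2, of 12 neighbours of the members that were called, 3 were called in the same direction and 7 in the opposite one. All but LCP2 of those members fell, so the opposite direction was mostly higher. Of all tested genes 64.7% were called in KO2, 38.1% higher and 26.6% lower, and this excess of higher calls depended on the scaling. The 3 became 1 without WT replicate 1 or without KO2 replicate 2, and the 7 ranged from 5 to 7. Beside THEMIS, ECHDC1 rose from 33.0 ± 1.93 to 55.0 ± 2.52 and 53.1 ± 1.71 FPKM, and PTPRK went from 21.7 ± 0.299 FPKM in WT down to 12.4 ± 1.08 in KO1 and up to 30.7 ± 1.41 in KO2. Beside PTPRC, ZNF281 rose from 17.8 ± 0.611 to 26.5 ± 1.06 and 25.1 ± 0.833 FPKM. Beside LCK, HDAC1 stood at 232 ± 1.05, 214 ± 6.90 and 223 ± 2.85 FPKM. TRAF3IP2, beside FYN, fell from 3.08 ± 0.324 to 2.11 ± 0.430 and 1.86 ± 0.348 FPKM. ACTR1B, beside ZAP70, fell from 20.5 ± 1.78 to 14.2 ± 0.236 and 17.1 ± 0.578 FPKM. Beside LAT, SPNS1 averaged 9.39 ± 0.971, 7.22 ± 0.734 and 11.2 ± 0.914 FPKM in the same order of groups.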

How the data were processed

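The authors deposited a single matrix of FPKM values, 9 columns of libraries by gene symbol. STAR 2.5.0b, Cufflinks 2.2.1, bedtools 2.7.0 and hg19 appear in the submitters' processing notes, which give no role or order. That the unit is FPKM was inferred from Cufflinks and from the values. The annotation, the strand setting and any scaling across samples were not stated in what was used here. Of 26228 rows, 38 held text and were dropped. Groups and replicate numbers came from the sample titles. Read numbers are unknown, so count models and counting intervals were not used.

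A gene was kept where 3 of the 9 libraries reached 1 FPKM. A linear model of log2(FPKM + 1) in limma 3.58.1 (R 4.3.3), with a trend of variance on mean level, covered the 3 groups together. The pseudocount of 1 understates changes of low genes. The script was tested on simulated data. The members, gene lists and tests were chosen with earlier results of these data known. Genes named are the members, up to 4 per list (smallest p, both edited lines averaged against WT), SYK, YES1, the 2 genes most like a member that changed 2-fold, members' neighbours and EZH2, with CD2, CD79A and NCAM1 from the marker lists. For the neighbours, 98.6% of tested genes could be placed in RefSeq order. Alternatives varied the filter, pseudocount, scaling, moderation, threshold and samples, and added a replicate block. Protein sequences were not used, and some genes of the lists are not reported here.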

Additional observations from a re-analysis of the deposited data

Results flagged for a closer look

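The effects of the edited lines against WT differed from each other, by limma's test of KO2 minus KO1, for 26 of the 53 genes named by rule, against 30.6% of all tested genes. Some of the 53 were picked for a small p against WT or for likeness to THEMIS in these data, so that share is not a matched background. Values in parentheses are log2 differences, KO2 minus KO1. Of the 8 proximal signalling genes these were THEMIS (1.20), LAT (0.78) and LCK (0.15), all less reduced in KO2. In the surrounding lists CD3D (0.29), TXK (0.46), FYB (0.20), DOK2 (0.42), STIM1 (0.36), CD5 (0.35) and CD28 (0.73) were higher in KO2, and CD4 (-0.86), BLK (-0.62), RASGRP1 (-0.22), CD2 (-4.10), CD79A (-1.34) and NCAM1 (-1.89) were lower. CD2 and CD79A were higher than WT in KO1 and lower than WT in KO2. TXK met the filter only through its KO2 libraries, and BLK only through its WT and KO1 libraries. Among the 16 neighbours of members EIF3I (0.27), ACTR1B (0.25), TMEM131 (0.24), SPNS1 (0.57), DOCK2 (0.15), LINC01366 (0.27) and PTPRK (1.24) differed, all higher in KO2. Over all tested genes 18.3% were called higher in KO2 and 12.4% lower. Higher calls were 59.7% of all calls between the edited lines, but 47.9% after median centring. PTPRK, beside THEMIS, was below WT in KO1 and above it in KO2. C20orf197 (0.64) and BHLHE40 (0.42), the genes nearest to THEMIS in pattern, were less reduced in KO2, and the EZH2 transcript itself differed (-0.24). Leaving out 1 library ended the call for LCK (4 of 9 libraries, adjusted p up to 0.0836), FYB (6, up to 0.149), RASGRP1 (7, up to 0.143), DOCK2 (5, up to 0.106), BHLHE40 (6, up to 0.113) and TMEM131 (KO2 replicate 3, 0.0502).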

How the results depend on the processing

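Each of the 24 log2 fold changes of the 8 genes was recomputed under 20 alternatives. Of 480 values, 469 stayed on the same side of the threshold, as did all values of 20 of the 24, and no called value changed sign. Uncalled differences near 0 between KO2 and KO1 did change sign, under 5 alternatives for FYN (range over all alternatives -0.03 to 0.01) and under 4 for LCP2 (-0.05 to 0.03). ZAP70 in KO2 against WT passed after median centring (-0.23) and without WT replicate 1, with a range over single left-out libraries of -0.30 to -0.13. LCK in KO2 against KO1 was lost after median centring (0.11), with no trend (0.15) and at a threshold of 0.01 (0.15), and ranged from 0.12 to 0.19 over left-out libraries. ZAP70 and PTPRC in KO2 against KO1 ranged from 0.11 to 0.21 and from 0.092 to 0.13 and passed without WT replicate 1, and the number of members called higher ranged from 2 to 5 over left-out libraries. At 0.01 the genes called between the edited lines went from 2146 higher and 1450 lower to 1168 and 932. TXK, with all WT and KO1 libraries under 1 FPKM, passed in KO1 with pseudocounts of 0.1 or 0.5 and with no trend.

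Replicate numbers are shared by the groups, but the titles do not say that they mark a shared day or culture, so they were not treated as pairs. Deviations of same-numbered libraries correlated between -0.287 and 0.318, over 0.1 in 3 of 9 pairs. Those of libraries with other numbers correlated between -0.266 and 0.343, over 0.1 in 4 of 18 pairs. These values do not settle whether the libraries were paired. With the replicate block 1 member rose and 7 fell in KO1, 1 rose and 5 fell in KO2, and 3 were higher in KO2 than in KO1, the counts found without the block, and the call of no member changed. Over all genes 4053 rose and 3641 fell in KO1 with the block, against 4177 and 3746. Read depth is unknown, and 3 libraries per group limit the precision.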
